A study of Mus musculus with 12 samples.

Results

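The 10 genes described here are non-coding hosts of intronic small nucleolar RNAs (snoRNAs): Gas5, Snhg1, Snhg5, Snhg6, Snhg8, Snhg12, Snhg15, Snhg20, Zfas1 and Epb41l4aos. They were taken by symbol from the 31091 gene rows of an RNA-sequencing table of granule cell progenitors (cerebellar precursor cells that still divide) from mice at postnatal day 3 (P3). Each symbol matched 1 row, and each row carried the biotype lncRNA. Of the 12 samples in the series, 3 were from mice with a conditional knockout of Znhit3 (cKO) at P3 and 3 from WT control mice at P3. The other 6 samples, 3 cKO and 3 WT at P6, were not analysed here. The Cre driver, the floxed allele and its remaining exons, the sex of the mice and any pooling of animals were not given in the sources used here. Nor do the labels say that replicates came from separate animals, so the p-values here reflect sample-to-sample spread alone, part of which may be technical.

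Znhit3 encodes a zinc-finger protein that helps to assemble box C/D small nucleolar ribonucleoproteins (snoRNPs). Box C/D snoRNAs guide methylation of ribosomal RNA ribose, and box H/ACA snoRNAs guide pseudouridine formation. Small Cajal body RNAs (scaRNAs) do the same for spliceosomal RNAs. In mammals most of them are cut from introns that have been spliced out of a host transcript. In a non-coding host the intron is conserved while the spliced exons code for no long protein. Many such spliced RNAs are degraded by nonsense-mediated decay during translation, and many hosts carry the pyrimidine-rich start of ribosomal protein genes, the 5′ terminal oligopyrimidine (TOP) tract. The values below are those of the host transcripts, and the resident snoRNAs themselves were not analysed here.

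In the GENCODE M21 annotation (GRCm38), the 10 hosts held 31 small RNAs on their own strand, 30 snoRNAs and 1 scaRNA, after 2 overlapping entries of the same name were merged. They were between 60 and 193 bases long. All 31 lay in an intron of the host transcript with the most exons. Gas5, named for its rise in growth-arrested cells, held 9 snoRNAs and Snhg1 held 8. Snhg12 held 4, Zfas1 held 3 and Snhg5 held 2, while Snhg6, Snhg8, Snhg15, Snhg20 and Epb41l4aos held 1 each. The letters TGATG in the first 20 bases were taken as box C, CTGA in the last 15 bases as box D, and ACA 2 to 4 bases from the 3′ end as the ACA box, all read on the RNA strand. Both C and D letters were found in 21 of the small RNAs, 1 of the 2 in another 3, the ACA letters alone in 6, and none in Snora44 of Snhg12. Gas5, Snhg5, Snhg6 and Zfas1 held only small RNAs with both C and D letters. The small RNAs of Snhg8, Snhg15, Snhg20 and Epb41l4aos had ACA letters, and Snhg12 held both kinds.

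**Figure D1:**
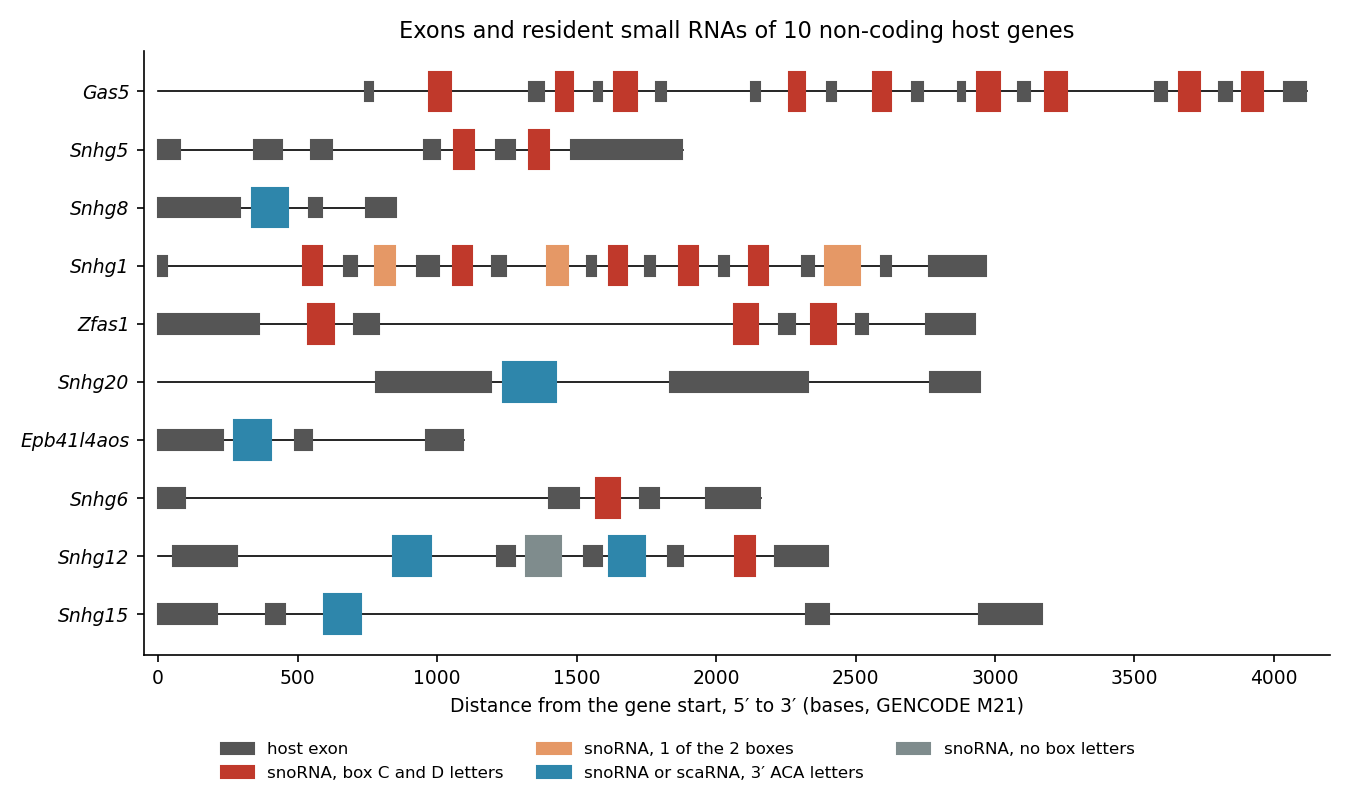
Map of the 10 host genes in GENCODE M21, each drawn 5′ to 3′ from its start, with distance in bases on the x axis and genes in the order of their control level. Grey boxes are exons of the transcript with the most exons, and coloured boxes are the small RNAs, by the box letters found in them. Gas5 holds 9 and Snhg1 holds 8 of the 31 small RNAs.

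The small RNAs of the hosts on which the results turn are shown first, with box letters in capitals (GRCm38, GENCODE M21 transcript sequences). Snord50a and Snord50b sit in neighbouring introns of Snhg5, whose level fell in cKO. They have the same 72 bases but for 1 difference, C50A, counted from 1 at the 5′ end with the base of Snord50a first. Gm26083 is the scaRNA of Snhg20, which also fell, and Snora9 is the snoRNA of Snhg15, which rose. Snora24 of Snhg8, Snord47 of Gas5 and Snord12 of Zfas1 stand for hosts that were not called in the comparison below.
Snord50a, in Snhg5, chr9:88521529-88521600, minus strand: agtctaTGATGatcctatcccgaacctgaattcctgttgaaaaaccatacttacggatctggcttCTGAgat
Snord50b, in Snhg5, chr9:88521797-88521868, minus strand: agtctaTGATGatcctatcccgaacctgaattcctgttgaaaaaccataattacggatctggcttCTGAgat
Gm26083, in Snhg20, chr11:117077243-117077435, plus strand: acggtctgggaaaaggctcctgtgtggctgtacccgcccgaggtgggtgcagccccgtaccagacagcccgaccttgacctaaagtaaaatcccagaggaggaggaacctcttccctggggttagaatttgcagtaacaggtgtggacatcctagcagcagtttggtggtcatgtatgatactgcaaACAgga
Snora9, in Snhg15, chr11:6528033-6528165, minus strand: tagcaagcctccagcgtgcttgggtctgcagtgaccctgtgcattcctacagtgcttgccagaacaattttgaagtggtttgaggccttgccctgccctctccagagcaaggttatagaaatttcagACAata
Snora24, in Snhg8, chr3:123507937-123508066, minus strand: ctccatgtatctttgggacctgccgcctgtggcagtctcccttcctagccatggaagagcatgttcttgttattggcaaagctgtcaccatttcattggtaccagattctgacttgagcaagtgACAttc
Snord47, in Gas5, chr1:161038082-161038158, plus strand: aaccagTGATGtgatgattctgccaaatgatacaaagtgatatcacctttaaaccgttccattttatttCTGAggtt
Snord12, in Zfas1, chr2:167065276-167065365, plus strand: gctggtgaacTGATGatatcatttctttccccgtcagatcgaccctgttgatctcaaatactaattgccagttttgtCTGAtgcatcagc

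The RefSeq promoter table (GRCm38.p6) held 9 starts for 8 of the hosts, with 2 for Gas5. A window of 50 bases before and 50 from each annotated start was searched. The letters TATAA on either strand (TTATA on the other) were found in the upstream part of 5 of the 9 windows, and in 6.4% of the 32851 windows in the table. The hosts with the letters were Gas5 at its second start, Snhg1, Snhg5, Snhg8 and Snhg12. An unbroken run of at least 8 C or T letters anywhere in the window was found in 2 of the 9, against 35.7% of all windows. These were Snhg1 and Snhg12. Shorter runs close to the start fell under this cut. They had 6 letters at the second start of Gas5 and 7 at Snhg8, each from 1 base before the start, and 7 at Snhg5. The count is thus not a test for a TOP tract. The windows below are shown for the hosts with TATAA or TTATA letters or a run of at least 8, and for Snhg20 and Snhg15, which had neither. Capitals mark the TATAA or TTATA letters and runs of at least 8 C or T letters, and the annotated start is base 51 of each window.
Gas5, second listed start, chr1:161035116-161035215, plus strand: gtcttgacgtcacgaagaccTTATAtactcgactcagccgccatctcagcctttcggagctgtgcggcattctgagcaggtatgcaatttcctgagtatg
Snhg1, chr19:8723437-8723536, plus strand: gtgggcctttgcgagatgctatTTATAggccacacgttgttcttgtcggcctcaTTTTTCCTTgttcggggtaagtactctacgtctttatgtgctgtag
Snhg5, chr9:88522848-88522947, minus strand: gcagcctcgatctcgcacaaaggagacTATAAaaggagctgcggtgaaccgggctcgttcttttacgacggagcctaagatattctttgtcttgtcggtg
Snhg8, chr3:123508287-123508386, minus strand: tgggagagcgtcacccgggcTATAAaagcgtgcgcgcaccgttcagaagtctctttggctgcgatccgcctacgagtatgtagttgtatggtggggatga
Snhg12, chr4:132308628-132308727, plus strand: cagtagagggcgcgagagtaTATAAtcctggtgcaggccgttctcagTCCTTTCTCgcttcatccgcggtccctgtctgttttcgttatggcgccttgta
Snhg20, chr11:117076733-117076832, plus strand: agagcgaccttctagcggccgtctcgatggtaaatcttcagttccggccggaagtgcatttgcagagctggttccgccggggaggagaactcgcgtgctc
Snhg15, chr11:6528711-6528810, minus strand: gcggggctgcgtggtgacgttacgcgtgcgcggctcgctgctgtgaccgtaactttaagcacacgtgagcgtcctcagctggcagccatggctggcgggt

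Levels are given as FPKM (fragments scaled by counted gene length and by library depth), as the authors deposited them. The 6 libraries corresponded to between 29119803 and 52961445 counted reads, and the hosts to between 159 reads (Epb41l4aos, cKO replicate 3) and 5560 reads (Gas5, control replicate 3) in a library. Znhit3 itself had 4.03, 4.01 and 4.57 FPKM in the cKO libraries and 9.15, 8.62 and 8.58 FPKM in the control libraries, with an exact two-sided permutation p of 0.1, the smallest that 3 against 3 samples allow. The fit across all genes put Znhit3 at a log2 difference of -0.91 ± 0.06 (SE) with a limma adjusted p of 0.00024. All 15 progenitor markers were measured, and their summed level was 1127 to 1184 FPKM in cKO and 1345 to 1427 FPKM in control libraries. Xist had 23.7 to 24.6 FPKM in cKO and 50.2 to 56.4 FPKM in control libraries, and the Y-linked Ddx3y 10.5 to 13.8 FPKM in cKO and 4.92 to 5.64 FPKM in control libraries. These sex-linked genes thus moved with genotype, and their part in the results below was not tested.

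All 10 hosts were expressed, with a mean in control libraries between 2.80 FPKM (Snhg15, above 24.0% of tested genes) and 24.8 FPKM (Gas5, above 83.4% of them). In control libraries the order was Gas5, Snhg5, Snhg8, Snhg1, Zfas1, Snhg20, Epb41l4aos, Snhg6, Snhg12 and Snhg15. The control values of Snhg5 and Snhg8 overlapped, as did those of Snhg20 and Epb41l4aos and those of Snhg6 and Snhg12. Every other pair of neighbours in that order was separate in control libraries. In cKO libraries Snhg1 overlapped Snhg8, and Snhg15 overlapped Snhg12, as well. Summed over the 10 hosts, the level was 95.3, 96.2 and 92.2 FPKM in the cKO libraries and 103.9, 109.0 and 115.2 FPKM in the control libraries, so the groups did not overlap. The sum over all genes was also separate with cKO below, at 273313 to 279284 FPKM in cKO and 280901 to 287334 FPKM in control libraries.

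These levels are per base of counted length, and that length took in intron sequence for most hosts. In the deposited table it was 100% of the gene's span for Snhg1, Snhg8, Snhg12, Zfas1 and Epb41l4aos, 97.0% for Gas5, 95.5% for Snhg20 and 84.9% for Snhg15. GENCODE M21 lists 42 retained-intron transcripts among the 85 transcripts of the 10 hosts, 20 of them for Gas5. In that annotation 29 of the 31 small RNAs lie inside an exon of at least 1 transcript of their host. Reads from spliced and from intron-retaining RNA therefore cannot be told apart in these values. Snhg5 and Snhg6 differ from the rest. Their spans in the deposited table were 28295 and 87590 bases with counted lengths of 3634 and 4219 bases, against spans of 1880 and 2160 bases in GENCODE M21.

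Of the 10 hosts, Snhg5 and Snhg20 fell and Snhg15 rose in cKO, and 7 were not called at a limma adjusted p under 0.05. Among all 13538 genes tested, 5.74% were lower and 13.4% higher, 19.1% in all. The log2 difference was below 0 for 9 of the 10 hosts, for 349 of the 640 lncRNA rows tested and for 42.1% of all genes. The groups were separate, cKO below control, for Gas5, Snhg5, Snhg8 and Snhg20, 4 of the 10 hosts and 13.2% of all genes. They were separate with cKO above for Snhg15, 1 of the 10 and 27.3% of all genes. In either direction the groups were separate for 5 hosts and for 40.5% of all genes. Among the 640 lncRNA rows, 90 were separate with cKO below and 71 with cKO above. The median log2 difference was -0.12 over the hosts, 0.03 over all genes tested and -0.03 over the 640 lncRNA rows tested, of which 7.5% were lower and 4.53% higher. Each difference subtracts control from cKO after log2(FPKM + 1), a scale on which changes of low genes come out too small. In a bulk sample fewer cells of a type and less RNA per cell cannot be told apart.

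**Figure D2:**
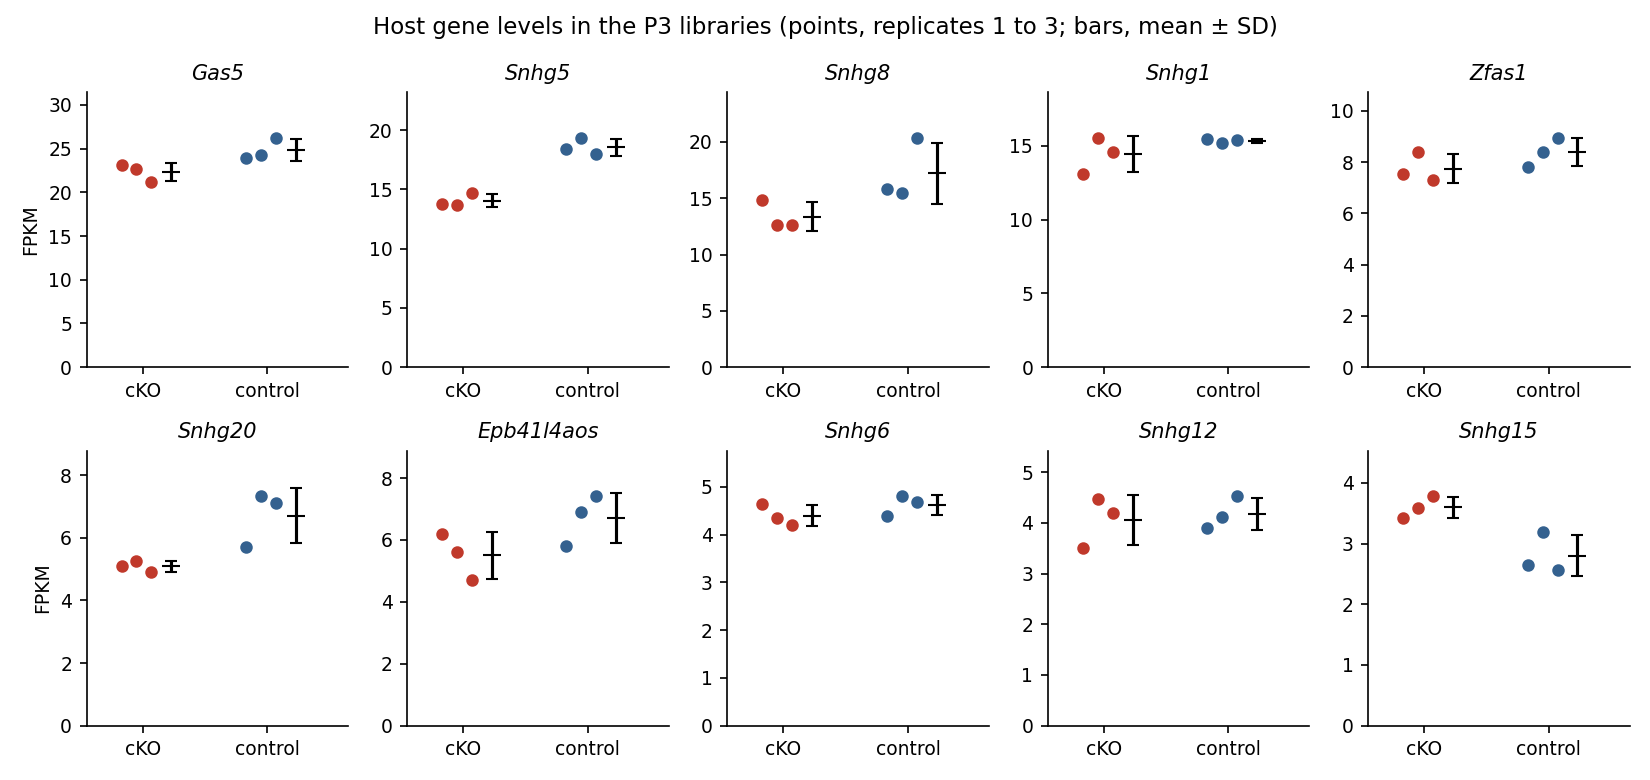
FPKM of each host gene (y axis, from 0) in the 3 cKO (red) and 3 control (blue) libraries, replicates 1 to 3 from left to right, with the mean ± SD beside them. The groups are separate for Gas5, Snhg5, Snhg8 and Snhg20, with cKO below, and for Snhg15, with cKO above.

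The box C/D hosts come first. Snhg5, the host of Snord50a and Snord50b, measured 13.8, 13.6 and 14.7 FPKM in cKO libraries and 18.4, 19.3 and 17.96 FPKM in control libraries. The highest cKO value was thus well below the lowest control value. The mean was 14.0 ± 0.55 FPKM in cKO and 18.6 ± 0.71 FPKM in control (SD, n = 3 each), which left 75.7% of the control level. The log2 difference was -0.38 ± 0.05 (SE) with a 95% interval from -0.49 to -0.27 and a limma adjusted p of 0.0024. Snhg5 rested on 1553 to 3456 reads per library, and it was called lower in all 17 alternative settings, with differences between -0.41 and -0.34.

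Gas5 is the most abundant of the hosts and its spliced RNA is a well-known target of nonsense-mediated decay. It measured 23.1, 22.7 and 21.2 FPKM in cKO libraries and 24.0, 24.2 and 26.2 FPKM in control libraries. The groups were separate, but cKO replicate 1 and control replicate 1 were close to each other. The mean was 22.3 ± 1.0 FPKM in cKO and 24.8 ± 1.2 FPKM in control (SD, n = 3 each). Its log2 difference was -0.14 ± 0.05 (SE) with a limma adjusted p of 0.090, so Gas5 was not called, although voom on the recovered reads gave an adjusted p of 0.048. The 95% interval of the difference ran from -0.27 to -0.02.

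Snhg1, with 8 snoRNAs, had 13.1, 15.5 and 14.6 FPKM in cKO libraries and 15.4, 15.2 and 15.4 FPKM in control libraries. The control values were nearly the same and cKO replicate 2 lay above all of them. The log2 difference of Snhg1 was -0.09, with a 95% interval from -0.23 to 0.05 and a limma adjusted p of 0.34. It was -0.02 without cKO replicate 1 and -0.14 without cKO replicate 2. Zfas1, whose start lies opposite that of Znfx1 and which holds 3 snoRNAs, Snord12 among them, had 7.53, 8.40 and 7.33 FPKM in cKO libraries and 7.83, 8.42 and 8.95 FPKM in control libraries. Its groups overlapped, and the log2 difference of -0.10 had an interval from -0.25 to 0.05 (limma adjusted p of 0.29). Snhg6, the host of Snord87, averaged 4.40 ± 0.22 FPKM in cKO and 4.62 ± 0.21 FPKM in control (SD, n = 3 each), with overlapping groups and a limma adjusted p of 0.48. The 95% interval of its log2 difference ran from -0.19 to 0.07.

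Snhg12, the host with both kinds of snoRNA, had 3.50, 4.46 and 4.20 FPKM in cKO libraries and 3.90, 4.11 and 4.52 FPKM in control libraries. The groups overlapped almost wholly. The log2 difference of -0.04 had a 95% interval from -0.23 to 0.15 and a limma adjusted p of 0.77. Its sign was positive in 3 of 16 alternative settings, without a call in any.

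Snhg8, Snhg15 and Epb41l4aos host 1 ACA-box snoRNA each. Snhg8 measured 14.8, 12.6 and 12.7 FPKM in cKO libraries and 15.8, 15.5 and 20.4 FPKM in control libraries. The groups were separate, with cKO lower, and control replicate 3 stood well above the other 5 libraries. The mean was 13.4 ± 1.2 FPKM in cKO and 17.2 ± 2.7 FPKM in control (SD, n = 3 each). The log2 difference of -0.34 ± 0.11 (SE) was close to that of Snhg5 but had a wider interval, from -0.58 to -0.09, and a limma adjusted p of 0.060, so Snhg8 was not called. Without control replicate 3 its difference was -0.22, a change of over 1.5 times, with a limma adjusted p of 0.11. At 860 bases it has the shortest counted length of the 10, and 317 to 927 reads per library.

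Snhg15, the host of Snora9 and the least abundant of the 10, measured 3.43, 3.59 and 3.78 FPKM in cKO libraries and 2.65, 3.19 and 2.56 FPKM in control libraries. All cKO values were above all control values. The mean was 3.60 ± 0.17 FPKM in cKO and 2.80 ± 0.34 FPKM in control (SD, n = 3 each), 128.4% of the control level. The log2 difference was 0.28 ± 0.08 (SE), with a 95% interval from 0.10 to 0.45 and a limma adjusted p of 0.040. This call was lost without any 1 of the cKO replicates or control replicates 1 and 3 (adjusted p between 0.056 and 0.11) and with quantile normalization (adjusted p of 0.13 at a difference of 0.19). The difference stayed above 0 in all 16 alternative settings in which Snhg15 was tested.

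Epb41l4aos, a short gene on chromosome 18, had 6.19, 5.62 and 4.70 FPKM in cKO libraries and 5.81, 6.91 and 7.41 FPKM in control libraries. The groups overlapped, with cKO replicate 1 above control replicate 1. The log2 difference of -0.25 had a 95% interval from -0.49 to -0.01 and a limma adjusted p of 0.13. It was -0.15 without cKO replicate 3 and also -0.15 after removal of the length trend. It rested on 159 to 456 reads per library, the fewest of the 10 hosts in the shallowest library.

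Snhg20, the host of a scaRNA, measured 5.11, 5.26 and 4.91 FPKM in cKO libraries and 5.71, 7.33 and 7.10 FPKM in control libraries. The cKO values were tight and all below the control values, of which replicate 1 was the lowest. The mean was 5.10 ± 0.18 FPKM in cKO and 6.71 ± 0.87 FPKM in control (SD, n = 3 each), which left 75.9% of the control level, close to the share left of Snhg5. The log2 difference was -0.33 ± 0.08 (SE), with a 95% interval from -0.53 to -0.14 and a limma adjusted p of 0.030. The call was lost without any 1 of the cKO replicates or control replicates 2 and 3, with limma adjusted p-values between 0.059 and 0.091 and differences between -0.35 and -0.27.

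The authors' deposited table gave larger falls for the same genes. Its log2 fold changes were -0.46 for Snhg5, -0.45 for Snhg20, -0.42 for Snhg8 and -0.21 for Gas5, and all 4 had an adjusted p under 0.05 there, from 6.3e-11 for Snhg5 to 0.012 for Snhg8. Of 16021 genes with an adjusted value in the authors' deposited table, 11.6% were lower at that threshold and 23.1% changed in either direction. For Snhg15 the authors' deposited table gave 0.31 and an adjusted p of 0.084, above that threshold. The other 5 hosts, with log2 fold changes between -0.34 and -0.10, were not called in the authors' deposited table either. Snhg5 and Snhg20 were thus the hosts that passed the threshold in both.

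**Figure D3:**
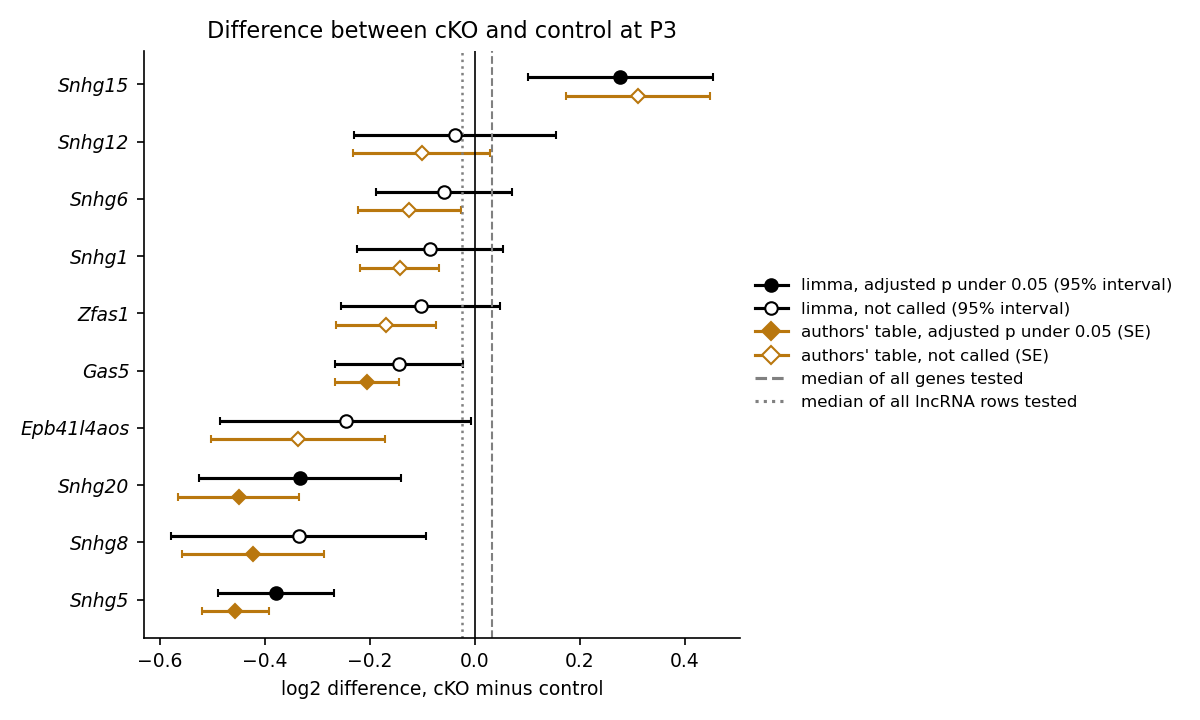
The log2 difference (x axis, cKO minus control) of each host gene. Circles are limma estimates with 95% intervals and diamonds the authors' log2 fold changes with SE, both filled where the adjusted p was under 0.05. Dashed and dotted lines mark the medians of all genes (0.03) and of all lncRNA rows tested (-0.03). Snhg15 is the host to the right of 0.

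Several hosts share a start region with a protein-coding gene on the other strand. Gas5 overlaps Zbtb37, a zinc-finger gene, by 428 bases, and Zfas1 overlaps Znfx1, an NFX1-type zinc-finger gene, by 82 bases in the deposited positions. Snhg1 starts 68 bases from Slc3a2, which encodes the heavy chain of amino acid transporters. Without a stated use of strand in counting, reads of the overlapping parts cannot be told apart. Znfx1 rose, with 3.66, 3.72 and 3.82 FPKM in cKO libraries and 3.07, 2.79 and 2.73 FPKM in control libraries, a log2 difference of 0.29 ± 0.06 (SE) with a limma adjusted p of 0.013. Zfas1, on the opposite strand, had the negative difference given above.

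Zbtb37 measured 1.60, 1.61 and 1.69 FPKM in cKO libraries and 1.36, 1.22 and 1.27 FPKM in control libraries. Its groups were separate with cKO above, at a limma adjusted p of 0.077, while those of Gas5 were separate with cKO below. Slc3a2 averaged 94.7 ± 4.4 FPKM in cKO and 90.7 ± 2.5 FPKM in control (SD, n = 3 each), with overlapping groups and a limma adjusted p of 0.40. Sgk3 and Mcmdc2 overlap the long span that the deposited table gives Snhg6. Sgk3, a kinase gene, had 1.15, 1.36 and 1.25 FPKM in cKO libraries and 1.03, 0.803 and 0.902 FPKM in control libraries, with a limma adjusted p of 0.088. Mcmdc2, a gene with an MCM domain, had 19 to 43 reads in the cKO libraries and 15 to 26 reads in the control libraries, and was under the filter on low values.

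The ratio of each of these 4 hosts to its neighbour in the same library was lower in cKO. The ratio of Gas5 to Zbtb37 was 14.4, 14.1 and 12.5 in cKO libraries and 17.6, 19.9 and 20.6 in control libraries. The ratio of Zfas1 to Znfx1 was 2.06, 2.26 and 1.92 in cKO libraries and 2.55, 3.02 and 3.28 in control libraries. The groups did not overlap for either pair, and the log2 ratios differed by -0.50 for both. For Snhg6 to Sgk3 the mean ratio was 3.52 in cKO and 5.14 in control libraries, and for Snhg1 to Slc3a2 it was 0.153 in cKO and 0.169 in control libraries, also with separate groups. These pairs were set against each other after their values were seen. The ratio of Gas5 to Zbtb37 restates values that were already separate in opposite directions, so it has no test of its own. Znfx1 and Sgk3 were likewise already separate with cKO above, while the groups of Zfas1 and Snhg6 overlapped. Their ratios therefore do not show that Zfas1 or Snhg6 itself fell. Apart from Gas5 to Zbtb37, the exact two-sided permutation p was 0.1 for each of the other 3 ratios, the smallest possible with 3 libraries against 3. It was also 0.1 after Benjamini-Hochberg adjustment over the 5 ratios computed. The neighbours of Gas5, Zfas1 and Snhg6 have counted lengths of 18814, 8189 and 14311 bases, far above those of the hosts.

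**Figure D4:**
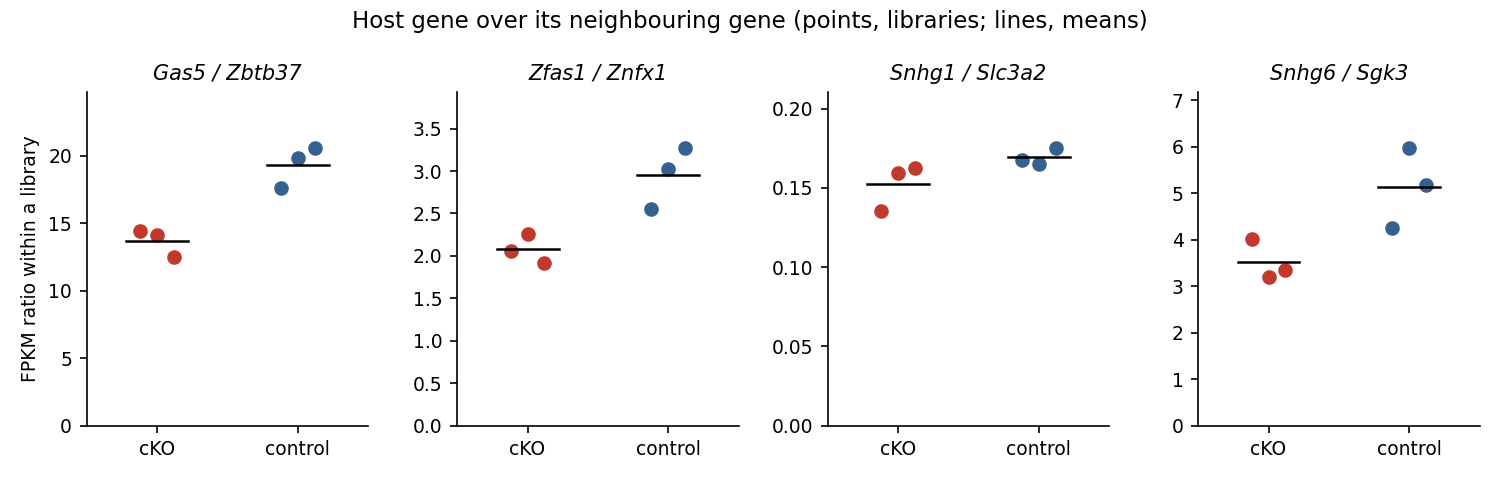
Ratio of the FPKM of a host gene to that of its neighbour (y axis, from 0) in each cKO (red) and control (blue) library, with lines at the group means. In all 4 panels the cKO libraries lie below the control libraries, with mean ratios of 13.7 and 19.3 for Gas5 to Zbtb37 in cKO and control.

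Counted length moved with the differences across all genes. Tested genes were split into 5 equal classes by counted length. In the class with the shortest (16 to 2096 bases) the median log2 difference was -0.06, with 9.53% lower and 6.09% higher. In the class with the longest (7423 to 41601 bases) it was 0.09, with 2.55% lower and 18.5% higher. The hosts, at 860 to 4219 bases, fall in the 3 shorter of these 5 classes. Snhg8 and Epb41l4aos are in the shortest. The others are in the classes of 2097 to 3486 bases (median -0.01) and 3487 to 5031 bases (median 0.04). After removal of the length trend Snhg5 stood at -0.38, Snhg20 at -0.31 and Snhg15 at 0.30, and all 3 stayed called, while Snhg8 stood at -0.24. The median over the hosts was then -0.12, with 0.02 over all genes.

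Other genes listed as non-coding hosts were counted beside these. Of 11 listed, 9 were in the table and all 9 passed the filter, Snhg3 and Snhg9 not being analysed here. None was called by limma (adjusted p from 0.14 to 0.94, 0 of 9 under 0.05 unadjusted), voom on the recovered reads called 1 higher, and the median log2 difference was -0.03. The most abundant of them, Snhg17, averaged 6.43 ± 0.34 FPKM in cKO and 6.60 ± 0.25 FPKM in control (SD, n = 3 each), with a limma adjusted p of 0.70. Snhg11 was the 1 of the 9 with separate groups, with cKO higher. Among all genes, 27.3% were separate with cKO above and 40.5% in either direction. The table gives Snhg11 the biotype protein_coding. Whether this list differs from the 10 hosts was not tested.

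Among 42 protein-coding hosts of snoRNAs, 6 fell, none rose and 36 were not called, which is 14.3% lower against 5.74% of all genes. Their median log2 difference was -0.11, and 32 of the 42 differences were below 0. At an unadjusted limma p under 0.05, 14 were lower and 1 higher, and voom on the recovered reads called 16 lower and 1 higher. Over all genes these shares were 12.0% lower and 23.8% higher unadjusted, and 8.25% lower and 19.2% higher by voom. Hspa8, the constitutive heat shock protein gene that hosts Snord14 RNAs, fell to 445.0 ± 0.49 FPKM in cKO, against 549 ± 36 FPKM in control (SD, n = 3 each, limma adjusted p of 0.012). Rpl21 fell to 136 FPKM in cKO, against 160 FPKM in control, and Rpl23a fell to 319 FPKM in cKO, against 394 FPKM in control. These 2 are ribosomal protein genes whose processed pseudogenes can share their reads.

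**Figure D5:**
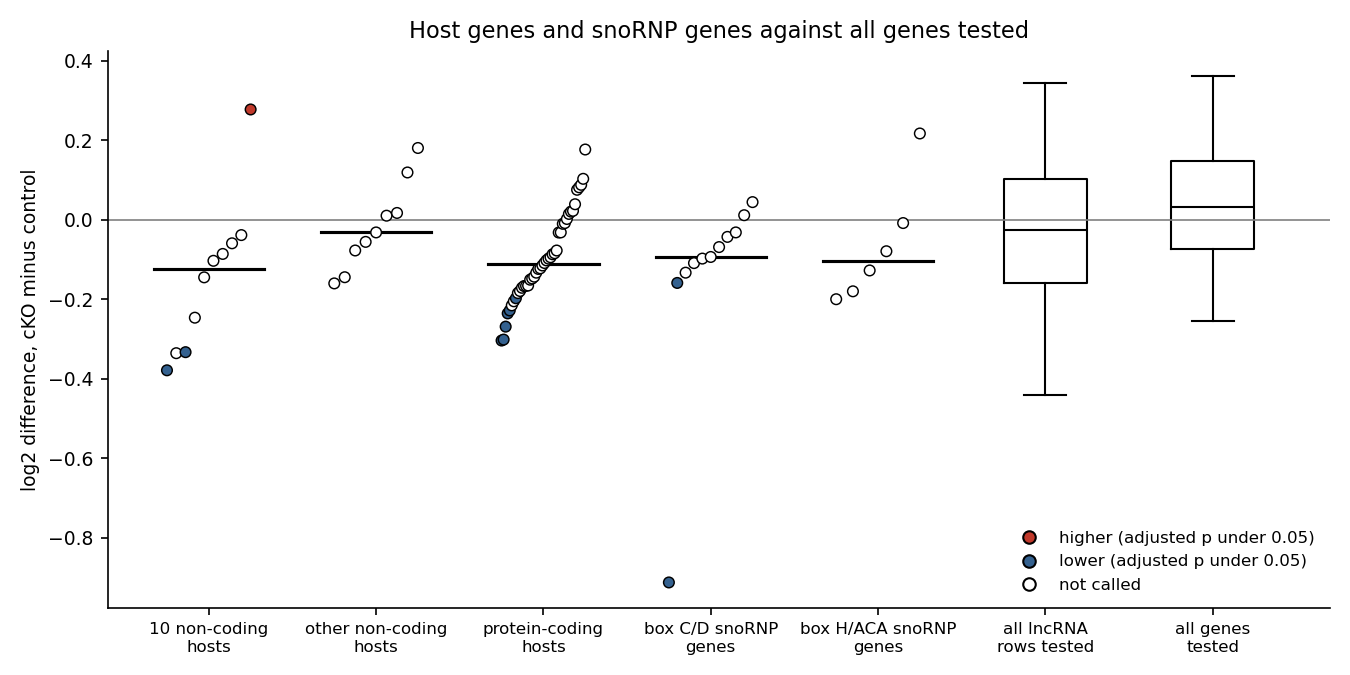
The log2 difference (y axis, cKO minus control) of each tested gene in 5 lists, with lines at list medians, beside boxes for all lncRNA rows and all genes tested (box, quartiles; whiskers, 5th and 95th percentiles). Filled points had a limma adjusted p under 0.05. Medians are -0.12 for the 10 hosts, -0.03 for other non-coding hosts and -0.11 for protein-coding hosts, and the lowest point among box C/D genes is Znhit3.

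Genes of the proteins that package the hosted RNAs were counted next. Of 11 box C/D core and assembly genes, 2 fell and none rose, against 5.74% lower and 13.4% higher among all genes, and without the targeted gene 1 of 10 fell. The 2 were Znhit3 itself and Snu13, whose protein binds the box C/D fold, at 47.8 ± 2.2 FPKM in cKO and 53.5 ± 1.2 FPKM in control (SD, n = 3 each, limma adjusted p of 0.049). At an unadjusted limma p under 0.05, 3 were lower and none higher, and voom gave the same counts. Of 6 box H/ACA genes none was called by limma (2 were lower at an unadjusted p under 0.05, and voom called 1 lower). The most abundant of these, Nhp2, had 55.3 ± 3.1 FPKM in cKO and 63.7 ± 3.7 FPKM in control (SD, n = 3 each, limma adjusted p of 0.050, just above the threshold). The medians of the log2 differences were -0.09 and -0.10.

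TOP genes of translation and factors of nonsense-mediated decay were counted as well. Of 30 TOP genes of translation, 3 fell (10.0%, against 5.74% of all genes) and 27 were not called. Their median log2 difference was -0.11, and 28 of 30 differences were below 0, against 42.1% of all genes. At an unadjusted limma p under 0.05, 11 were lower and 1 higher, and voom called 9 lower and none higher. Rps6 fell to 415 ± 7.8 FPKM in cKO, against 468 ± 10.4 FPKM in control (SD, n = 3 each, limma adjusted p of 0.036). Of 17 factors of nonsense-mediated decay 1 rose (5.88%, against 13.4% of all genes) and none fell, with a median of 0.03 (unadjusted, 3 higher and 2 lower; by voom, 2 higher and 1 lower). That gene was Upf1, the central helicase of the pathway, at 22.0 ± 0.84 FPKM in cKO and 19.4 ± 0.12 FPKM in control (SD, n = 3 each, limma adjusted p of 0.029).

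Markers of other cell types moved with genotype beside all of these counts. The counts below stand against 13.4% of all genes higher and 5.74% lower. Endothelial markers rose in 10 and fell in 1 of 12, with summed levels of 262 to 279 FPKM in cKO and 152 to 166 FPKM in control libraries. GABAergic interneuron markers rose in 8 and fell in 1 of 11 tested, with sums of 153 to 173 FPKM in cKO and 119 to 132 FPKM in control libraries. Pericyte markers rose in 7 of 8 (109 to 114 FPKM in cKO, 75.9 to 76.2 FPKM in control), and oligodendrocyte lineage markers in 8 of 10 (156 to 170 FPKM in cKO, 127 to 133 FPKM in control). Microglia markers rose in 5 of 10 (238 to 280 FPKM in cKO, 203 to 207 FPKM in control), and astroglia markers in 5 of 10 (937 to 971 FPKM in cKO, 891 to 916 FPKM in control). Erythroid markers rose in 4 of 5 tested (1656 to 1887 FPKM in cKO, 1211 to 1476 FPKM in control), and Purkinje cell markers in 3 of 6 (20.1 to 20.5 FPKM in cKO, 16.7 to 18.5 FPKM in control).

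Choroid plexus and ependyma markers fell in 7 and rose in 1 of 9 tested, with sums of 693 to 770 FPKM in cKO and 1409 to 1495 FPKM in control libraries. Ttr, the transthyretin gene, made up most of these sums, with 665 ± 44 FPKM in cKO and 1370 ± 48 FPKM in control (SD, n = 3 each). Of 15 granule progenitor markers 5 fell and 1 rose, and of the 13 tested for differentiating granule neurons, 6 fell and 1 rose. No listed marker was at 0 in all libraries. The part of these shifts in the differences of the host genes was not tested.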

How the data were processed

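RNA of granule cell progenitors was sequenced as poly(A)-selected, dUTP-marked paired-end libraries, per the labels' protocols. Software listed in the submitters' processing notes is cutadapt 1.9, HISAT2 2.2.1, StringTie 2.1.6, DESeq2, edgeR and the build mm10, but not what each did. Neither the annotation nor the use of strand is given in the sources used here. The authors deposited 1 table for P3 with FPKM per gene and library and, per the file headers, their own comparison: log2 fold changes and standard errors, a test score, and p-values before and after adjustment. The adjusted values equal those of the Benjamini-Hochberg method run on the 16021 genes whose value was not exactly 1. Columns named WT were matched to control by genotype and number, and the other 3 columns, which carry another prefix, to cKO because they are the only ones left. FPKM times the deposited counted length gave whole reads within 0.02 for 100% of values, and library depths followed from these. For a gene of 1 kb, 3 reads are then 0.057 to 0.10 FPKM, which covers counting error only. Positions in the deposited table differ from GRCm38, so only annotation positions are printed, with their build.

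Values were tested as log2(FPKM + 1) with limma 3.58.1 (R 4.3.3, intensity trend, no covariate) on the 13538 genes that averaged 1 FPKM or more, with Benjamini-Hochberg adjustment over all of them and a call under 0.05. All 10 hosts were tested. The fit was tested on simulated data. Counts of every pair of libraries in a group differed by more than sampling noise (chi-square per degree of freedom from 4.21 to 8.99), so none was counted as a duplicate. The hosts and lists were chosen with earlier results of these data known, so no count is independent support. Named genes were all hosts, Znhit3, genes overlapping a host or starting within 2000 bases on the other strand, and the called members with the smallest p of each list, of which 1 is not reported here. Xist, Ddx3y and Snhg11 were chosen after their values were seen. Alternatives were another pseudocount, other filters, TPM, upper quartile and quantile scaling, limma without trend, array weights, voom on the recovered reads, a replicate block and leaving out each library, and removal of the length trend, which was added after seeing the data.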

Additional observations from a re-analysis of the deposited data

How the results depend on the processing

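Snhg5 was lower and called under all 17 alternatives, and Znhit3 likewise (log2 differences from -1.07 to -0.86). Snhg20 was called under 11 of 17 and Snhg15 under 8 of 16, both with 1 sign throughout. Snhg8 was called under 4 of 17, Gas5 under 1 of 17, and the other hosts under none. Snhg12 reversed to 0.019 with array weights, 0.042 without cKO replicate 1 and 0.0084 without control replicate 3, uncalled each time. Of the 10 hosts, 3 were called (2 lower, 1 higher). Without a filter on low values the count was 1 (1 lower, 0 higher), and with voom 5 (4 lower, with 27.5% of all genes called, against 19.1%). The count of higher hosts was 0 with quantile normalization and with the replicate block. It was also 0 with a filter at a mean of 5 FPKM, under which Snhg15 was not tested. Leaving out 1 library also moved the differences of the uncalled Snhg6 (-0.09 to -0.03), Zfas1 (-0.16 to -0.06) and Snhg12 (-0.10 to 0.04) by over 1.5 times. It gave 1 to 2 called hosts, 1 to 2 lower and 0 to 1 higher. Over all genes 2590 were called, 1813 higher and 777 lower. With no filter these were 1271, 887 and 384. The count of higher genes was 1126 with a filter at a mean of 5 FPKM and 1083 with quantile normalization, and that of lower genes was 1173 with array weights. Leaving out 1 library gave 1207 to 2195 called, 859 to 1487 higher and 348 to 708 lower. The cause of these shifts was not tested. The share of calls that were higher was 70.0%, against 81.7% with TPM scaling, 56.8% with quantile normalization and 61.4% with a filter at a mean of 5 FPKM. The labels do not say that replicate numbers pair the samples, and same-numbered libraries did not deviate together (correlations of -0.02, 0.04 and -0.10), so the replicate block, with 1542 called, 1073 higher and 469 lower, is only an alternative. Snhg15, with an adjusted p of 0.071, was not called in it. Epb41l4aos rested on 159 to 456 reads per library, Snhg15 on 310 to 435, Snhg8 on 317 to 927 and Snhg12 on 346 to 678. Counting error is thus part of their spread.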
